A study of Mus musculus with 12 samples.

Results

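The expression of 10 genes of the heat shock response was followed in mouse colorectal tissue: Hspa1a, Hspa1b, Hsph1, Dnajb1, Hspa8, Hsp90aa1, Hspb1, Hspd1, Hspe1 and Hsf1. They were taken by symbol from the table of raw counts, and all 10 of the 10 symbols were found among its 18514 genes. All 10 passed the filter on low counts in every comparison. A contrast of mice with and without azoxymethane and dextran sodium sulfate was added after the values had been seen. There the inducible HSP70 pair Hspa1a and Hspa1b and the co-chaperone Dnajb1 stood higher, while the mitochondrial chaperonin pair Hspd1 and Hspe1 stood lower. In the separate group comparisons Hspa1a passed no test of edgeR. Hspa1b and Dnajb1 passed there only among swimming mice, and Hspd1 and Hspe1 only among untrained mice. No member passed edgeR's test for an effect of swimming.

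The tissue came from male C57BL/6 mice, with 1 library from each of 12 mice and 3 libraries in each of 4 groups. Ctrl mice received neither tumour induction nor training. Ctrl_Swim mice were trained to swim for up to 90 minutes each day, at 10 am, from 2 months before the experiment until its end. In Model mice, tumours were induced with azoxymethane (AOM, a colon carcinogen), injected once at 10 mg/kg, and with dextran sodium sulfate (DSS, which injures the colon epithelium), of which the drinking water held 2% for 7 days in each of 3 cycles, with 2 weeks of plain water after each, and Model_Swim mice had both AOM/DSS and swimming. Untrained mice were placed in a container with shallow warm water, which both untrained groups therefore share. Ctrl_Swim libraries carry the replicate numbers 2 to 4 and the other groups 1 to 3.

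Heat shock proteins are chaperones that help other proteins fold and keep unfolded proteins from clumping. In unstressed cells the transcription factor HSF1 is held inactive by chaperones, and when unfolded proteins occupy these chaperones HSF1 forms trimers and binds heat shock elements, which are inverted repeats of the unit GAA. HSP70 proteins bind short stretches of unfolded chains with the help of J-domain proteins and of HSP110 exchange factors, HSP90 acts on kinases and hormone receptors, and HSP60 with HSP10 folds proteins inside mitochondria. In the intestine, heat shock proteins are known as cytoprotective proteins of the epithelium that respond to heat, injury and bacterial products.

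The windows upstream of Hspa1a and Hspa1b are shown to compare the heat shock motifs before these genes. The windows lie upstream of the annotated transcripts, so their likeness does not bear on the counts. They come from the RefSeq table of GRCm38.p6 and are written 5′ to 3′ along the gene, and the capitals mark 2 facing units, GAANNTTC. The first lies at chr17:34972157-34972406 and the second at chr17:34959239-34959488, both on the minus strand and directly upstream of the start of the gene. They differ at 3 of 250 bases, and in both the motif GAAGATTC stands from 104 to 97 bases before the start.
Hspa1a: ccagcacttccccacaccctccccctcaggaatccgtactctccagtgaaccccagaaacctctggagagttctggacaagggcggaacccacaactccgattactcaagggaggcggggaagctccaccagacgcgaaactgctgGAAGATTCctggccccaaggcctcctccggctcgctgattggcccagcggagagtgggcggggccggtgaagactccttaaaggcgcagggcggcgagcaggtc
Hspa1b: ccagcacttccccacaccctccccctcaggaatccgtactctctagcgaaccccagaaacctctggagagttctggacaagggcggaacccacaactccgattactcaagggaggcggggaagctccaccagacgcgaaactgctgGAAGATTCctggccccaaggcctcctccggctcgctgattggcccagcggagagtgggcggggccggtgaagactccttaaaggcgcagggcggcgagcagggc

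Hspd1 and Hspe1 lie head to head on chromosome 1. Hspd1 covers chr1:55077835-55088243 on the minus strand and Hspe1 covers chr1:55088132-55091307 on the plus strand in GENCODE, so their 5′ ends overlap. Between their main start sites, in the first exon of a longer Hspd1 transcript, the plus strand holds a run of 4 alternating GAA units over 18 bases, shown in capitals from chr1:55088053-55088082. The single site of Hsph1 is shown beside it, from chr5:149636351-149636380 on the minus strand, where the capitals mark TTCNNGAA.
Hspd1 and Hspe1: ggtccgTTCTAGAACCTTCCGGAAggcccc
Hsph1: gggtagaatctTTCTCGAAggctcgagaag

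Of the 10 members, 7 had a window from 250 bases before to 50 bases after a start site in the RefSeq table, and Hspa8, Hsp90aa1 and Hsf1 had none there. Motifs were sought only in the 250 bases before a start site, in the members and in all genes. GAANNTTC or TTCNNGAA, which read the same on both strands, occurred in 6 of the 7 (Hspa1a, Hspa1b, Hspb1, Hspd1, Hspe1 and Hsph1) and in 14.5% of all 27025 genes with such a window. A run of 3 such units in alternating orientation, each 2 bases from the next, so that GAANNTTC and TTCNNGAA overlap by 1 unit, occurred in Hspd1 and Hspe1 and in 0.514% of all genes. The bases searched for Dnajb1 held neither. Their longest stretch in no annotated exon, chr8:83607972-83608174 on the plus strand, is shown because Dnajb1 moved with Hspa1b. A match describes these letters only and is not a measurement of binding.
Dnajb1: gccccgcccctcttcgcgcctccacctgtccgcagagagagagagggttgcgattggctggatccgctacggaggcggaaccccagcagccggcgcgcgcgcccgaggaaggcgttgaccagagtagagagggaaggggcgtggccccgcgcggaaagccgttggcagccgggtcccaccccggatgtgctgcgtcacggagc

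Total counts lay between 17256953 and 19451055 per library, and the members had between 141 counts (Hspa1a in Ctrl 3) and 27878 counts (Hspa8), so none was near the limit of detection. Values are CPM, a gene's share of the counts of its library, after TMM scaling. The tissue label was checked against 12 markers of colon epithelium, all present, whose summed level was 25555 to 32664 CPM in Ctrl and Ctrl_Swim and 25736 to 28248 CPM in Model_Swim, but 15147, 19380.0 and 28681 CPM in Model 1 to 3. The libraries Model 1 and Model 3 stood apart through 20 digestive enzyme genes of pancreatic acinar cells, led by Ctrb1, Cela2a and Pnlip, which summed to 55867 and 27246 CPM there and to between 206 and 708 CPM elsewhere, with Amy2b at 0 in all Model_Swim libraries. Markers of smooth muscle (10 of 10 present, led by Myh11, Acta2 and Actg2) summed to between 6693 and 10324 CPM, and proliferation genes (12 of 12, led by Mki67, Top2a and Pcna) to between 694 and 1143 CPM. Called results on Model are therefore also given without Model 1 and Model 3, which leaves 1 Model library, Model 2, whose spread is taken from the other groups.

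The level of the members was compared per length of transcript, in FPKM averaged over the 12 libraries. Hspa8, the constitutive cytosolic HSP70, stood at 640.0 FPKM (522 to 724), above 99.5% of all listed genes. The mitochondrial chaperonin Hspd1 (119.9 FPKM, 82.3 to 139), its partner Hspe1 (96.5, 66.1 to 122), Hsp90aa1 (95.8, 79.3 to 112) and Hspb1 (61.9, 45.6 to 84.3) followed, and each range overlapped that of its neighbour. Dnajb1 (19.4, 15.6 to 26.8) lay clear of Hspb1. Hsph1 (12.5 FPKM), the master regulator Hsf1 (12.2), Hspa1b (10.9) and Hspa1a (4.52) overlapped in range and came last. The inducible HSP70 genes thus had the lowest means over the 12 libraries and, as shown next, the widest spread relative to their level. In Model_Swim alone the mean of Hspa1b was 17.5 FPKM, above Hsph1 (15.1) and Hsf1 (11.7). Reads that fit both HSP70 genes, treated below, may have been discarded, which would lower their values.

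The inducible HSP70 genes differed between mice with and without AOM/DSS. Hspa1a and Hspa1b encode nearly the same stress-inducible HSP70 protein. Hspa1b was at 19.9, 22.7 and 18.5 CPM in Ctrl 1 to 3, at 21.4, 19.7 and 16.1 CPM in Ctrl_Swim 2 to 4, at 26.8, 42.5 and 32.2 CPM in Model 1 to 3 and at 74.9, 43.3 and 27.9 CPM in Model_Swim 1 to 3. All 6 libraries with AOM/DSS were above all 6 without it. Hspa1a was at 9.44, 9.05 and 7.75 CPM in Ctrl, 8.11, 8.99 and 8.17 CPM in Ctrl_Swim, 9.89, 18.0 and 15.1 CPM in Model and 31.5, 15.7 and 9.27 CPM in Model_Swim. Here the lowest library of Model_Swim lay between Ctrl libraries, so the 6 and 6 overlapped.

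**Figure D1:**
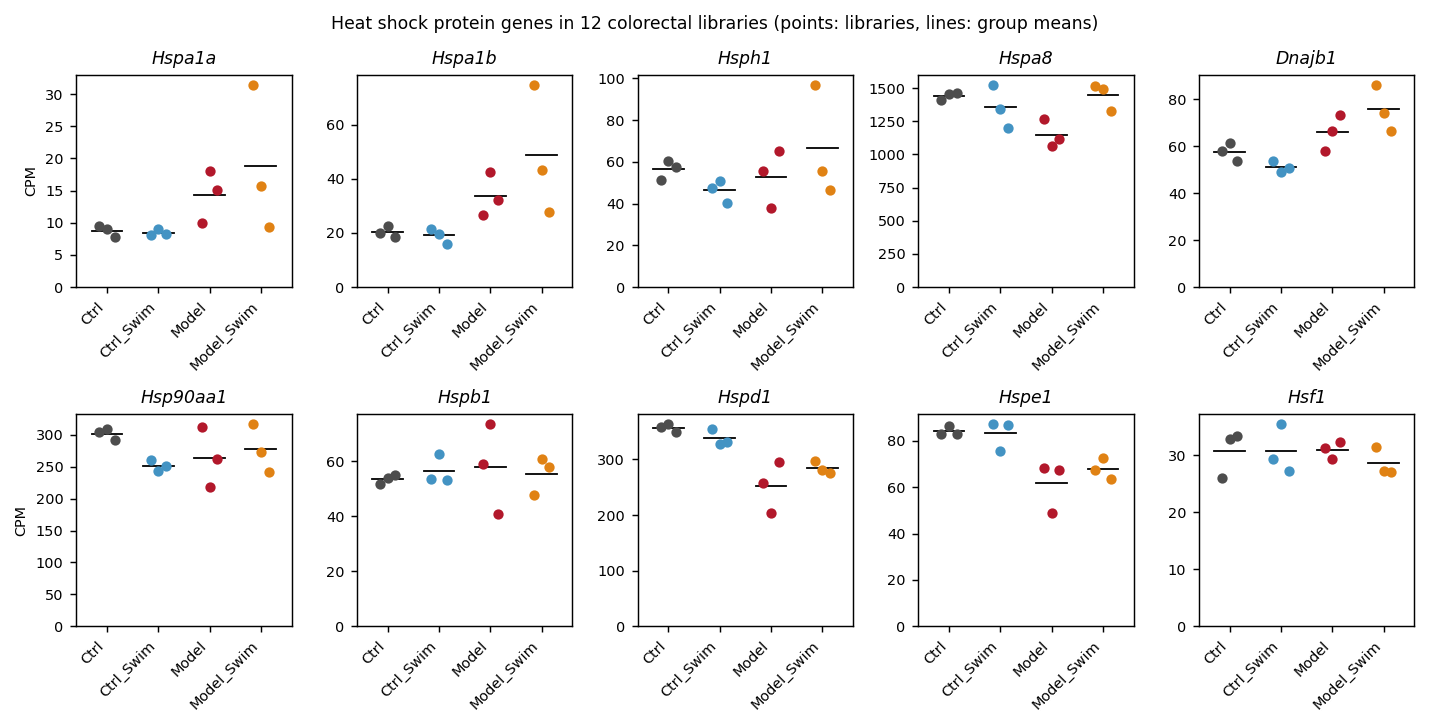
Level of each of the 10 heat shock protein genes in CPM (y axis, linear from 0) in the 12 libraries, grouped on the x axis, with 1 point per library and a line at the mean of each group of 3. Hspa1b lies between 26.8 and 74.9 CPM in the 6 AOM/DSS libraries against 16.1 to 22.7 CPM in the others, and Hspd1 lies between 203 and 296 CPM against 329 to 364 CPM.

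In Model_Swim vs Ctrl_Swim, Hspa1b was higher by 1.35 ± 0.30 on the log2 scale (SE, n = 3 and 3), which is 2.55-fold, with an adjusted p of 0.0306 in edgeR's quasi-likelihood test. This call was lost, at adjusted p between 0.0689 and 0.0860, when Ctrl_Swim 2, 3 or 4 or Model_Swim 1 or 2 was left out, and without Model_Swim 1 the difference fell to 0.90. In limma on log2(FPKM + 1) with no filter the adjusted p was 0.0535. Hspa1a was at 1.16 ± 0.36 (adjusted p = 0.0898). This value rested on 1 library, since it was 0.56 without Model_Swim 1 (adjusted p = 0.305) and 1.47 without Model_Swim 3 (adjusted p = 0.0458), and DESeq2 called it (adjusted p = 0.0141). In Model vs Ctrl, Hspa1b was at 0.74 ± 0.30 (adjusted p = 0.0780) and Hspa1a at 0.71 ± 0.36 (adjusted p = 0.147), and neither passed the threshold, although for both genes all 3 Model libraries lay above all 3 Ctrl libraries. The Hspa1b difference did pass in DESeq2 (adjusted p = 0.0295), in an edgeR fit of only the compared groups (adjusted p = 0.0261), and without Model_Swim 1 (adjusted p = 0.0199) or Model_Swim 3 (adjusted p = 0.0278), libraries that enter only the estimate of the spread. Without Model 1 and Model 3, Hspa1b was at 1.05 (adjusted p = 0.0592) and Hspa1a at 1.02 (adjusted p = 0.113).

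The contrast of all 6 AOM/DSS libraries with the 6 others was added after these values had been seen, and it shares every library with the comparisons above. Over both activity groups, Hspa1b was higher by 1.04 ± 0.21 on the log2 scale (adjusted p = 0.00400) and Hspa1a by 0.94 ± 0.26 (adjusted p = 0.0168). Without Model 1 and Model 3 the differences were 1.19 and 1.08 (adjusted p = 0.00359 and 0.0142). Of all 15484 genes tested, 33.4% were called in this contrast and 17.0% were called higher. The 5 members called are Hspa1a, Hspa1b and Dnajb1, which were higher, and Hspd1 and Hspe1, which were lower, and 16.5% of all genes were called lower. A 6 against 6 separation without overlap, as seen for Hspa1b, Hspd1 and Hspe1, occurred in 12.5% of all genes. The share of members called, 5 of 10, is above the background, but with 10 members chosen with earlier results known this is a description only.

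Hspa1a and Hspa1b could not be fully separated by short reads. Of the 100-base words of the Hspa1a transcript, 47.1% also occur in Hspa1b, and 49.9% of those of Hspa1b occur in Hspa1a, whereas Hspa1b shared none with Hspa8. Reads from the shared stretches may have been discarded or assigned to either gene. The ratio of Hspa1b to Hspa1a counts lay between 1.97 and 3.01 in the 12 libraries. With the counts of both genes added, the pair was higher by 1.30 ± 0.31 in Model_Swim vs Ctrl_Swim (adjusted p = 0.0398), by 0.73 ± 0.31 in Model vs Ctrl (adjusted p = 0.0893) and by 1.01 ± 0.22 over both activity groups (adjusted p = 0.00552).

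Dnajb1, the J-domain protein that hands substrates to HSP70 and helps to silence HSF1, had 57.7, 61.2 and 53.6 CPM in Ctrl, 53.8, 48.8 and 50.5 CPM in Ctrl_Swim, 57.7, 66.5 and 73.3 CPM in Model and 86.2, 74.0 and 66.6 CPM in Model_Swim. All Model_Swim libraries were above all Ctrl_Swim libraries, and the lowest Model library lay among the Ctrl libraries. Dnajb1 was higher by 0.57 ± 0.11 on the log2 scale in Model_Swim vs Ctrl_Swim (adjusted p = 0.0183). Without Ctrl_Swim 3, Model_Swim 1 or Model_Swim 2 the adjusted p rose to 0.0619, 0.0514 and 0.0527. In Model vs Ctrl it was at 0.20 ± 0.11 (adjusted p = 0.175), and over both activity groups it was higher by 0.38 ± 0.08 (adjusted p = 0.00362). Without Model 1 and Model 3 these values were 0.19 (adjusted p = 0.282) and 0.37 (adjusted p = 0.00467). Hspa1b and Dnajb1 were thus the 2 members called in Model_Swim vs Ctrl_Swim, where 5.18% of all genes were called, 3.49% were called higher and 1.00% were also past the 2-fold cutoff of the study, as Hspa1b was. Groups without overlap occurred for 3 higher and 2 lower members in that comparison, against 32.4% of all genes.

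Immediate early genes, which respond to stimuli and to handling of tissue within minutes, were compared between the groups as a sum. The 13 listed, all present and led by Jun, Btg2 and Junb, summed to 643 to 906 CPM in Model, 732 to 811 CPM in Model_Swim, 470 to 591 CPM in Ctrl and 403 to 503 CPM in Ctrl_Swim. In this sum all 6 AOM/DSS libraries were above the other 6. Jun separated them too, at 136 to 186 CPM against 70.8 to 99.9 CPM. Btg2 (104.6 to 118.9 against 67.2 to 115.9 CPM) and Junb (64.4 to 126.2 against 50.1 to 74.1 CPM) overlapped. Within the AOM/DSS libraries the order of the sum differed from that of Hspa1b. Model_Swim 1, with the highest Hspa1b level, had a sum of 811 CPM and Model 2 had 906 CPM. Leukocyte markers (10 of 10 present, led by Lcp1, Csf1r and Ptprc) summed to 589 to 679 CPM in Model, 412 to 512 CPM in Model_Swim, 294 to 342 CPM in Ctrl and 290 to 517 CPM in Ctrl_Swim. Their part in the HSP70 difference was not tested, and in bulk tissue fewer cells of a type and less RNA per cell cannot be told apart.

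Hsph1, the HSP110 exchange factor of HSP70, varied widely within the AOM/DSS groups. Its values were 51.3, 60.4 and 57.5 CPM in Ctrl, 47.7, 51.1 and 40.3 CPM in Ctrl_Swim, 55.5, 38.0 and 65.3 CPM in Model and 97.0, 55.8 and 46.4 CPM in Model_Swim. Model 2 had the lowest and Model_Swim 1 the highest level of the 12 libraries. The gene passed no test, with adjusted p between 0.258 and 0.805 in the 4 group comparisons.

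Hspa8, the constitutive HSP70, was at 1408, 1455 and 1467 CPM in Ctrl, 1527, 1344 and 1197 CPM in Ctrl_Swim, 1268, 1061 and 1116 CPM in Model and 1518, 1494 and 1331 CPM in Model_Swim. The 3 Model libraries lay below all Ctrl and all Model_Swim libraries. In Model vs Ctrl Hspa8 was lower by a log2 change of -0.33 ± 0.10 (adjusted p = 0.0290). This call was fragile, for the adjusted p was 0.0707, 0.0933 and 0.0967 without Ctrl 1, 2 and 3, 0.127 and 0.0622 without Model 2 and Model 3 and 0.0511 without Model_Swim 2, 0.0685 in a fit of only the compared groups, and 0.0671 in limma on log2(FPKM + 1). Without Model 1 and Model 3 it was -0.46 (adjusted p = 0.0182). In Model_Swim vs Model, Hspa8 was at 0.33 ± 0.10 with an adjusted p of 0.223 in edgeR and 0.0362 in DESeq2, and at 0.47 without Model 1 and Model 3 (adjusted p = 0.0703 in edgeR).

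Hsp90aa1, the inducible cytosolic HSP90, was at 304, 309 and 292 CPM in Ctrl, 261, 243 and 252 CPM in Ctrl_Swim, 312, 218 and 262 CPM in Model and 317, 273 and 241 CPM in Model_Swim. Its Ctrl_Swim libraries lay below the Ctrl libraries, while both AOM/DSS groups spread over the whole range. No comparison passed, with adjusted p between 0.256 and 0.854. It was called lower in Model vs Ctrl without Model 1 alone and with the mean log2 CPM of the acinar genes as a covariate. Without Model 1 and Model 3 it was at -0.49 in Model vs Ctrl and at 0.61 in the interaction of swimming with AOM/DSS.

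Hspb1, the small heat shock protein HSP27 that binds actin and unfolded proteins, was at 51.6, 53.8 and 55.0 CPM in Ctrl and 53.4, 62.7 and 53.2 CPM in Ctrl_Swim. In Model it was at 59.1, 73.5 and 40.7 CPM and in Model_Swim at 47.6, 60.6 and 57.9 CPM, so that Model held both the highest and the lowest library and the groups overlapped. Its log2 fold change in Model vs Ctrl was 0.11 (adjusted p = 0.640 in edgeR). Without Model 1 and Model 3, where Model 2 with the highest level remains, it was 0.44. Markers of squamous epithelium (10 of 10 present, led by Krt5, Krt14 and Krt13), a tissue in which HSP27 is abundant, summed to 539, 1450.5 and 9.06 CPM in Model and 114, 968 and 1068 CPM in Model_Swim. In Ctrl they summed to 5.83 to 7.12 CPM, with Sprr3 at 0, and in Ctrl_Swim to 6.28 to 402 CPM. The highest and the lowest Hspb1 level of the AOM/DSS libraries were found in the libraries with the highest and the lowest squamous sum. Other libraries did not follow this order. Ctrl_Swim 3 had 62.7 CPM of Hspb1 with a squamous sum of 6.28 CPM, and Ctrl_Swim 4 had 53.2 CPM with a sum of 402 CPM. Model_Swim 3, with the larger squamous sum, had less Hspb1 than Model 1. The part of this tissue in the Hspb1 level was not tested.

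The mitochondrial chaperonin genes were lower in AOM/DSS mice. Hspd1 encodes HSP60, which encloses a folding chain, and was at 358, 364 and 349 CPM in Ctrl, 355, 329 and 331 CPM in Ctrl_Swim, 257, 203 and 295 CPM in Model and 296, 280.2 and 275 CPM in Model_Swim. Hspe1 encodes HSP10, the lid of that chamber, and was at 82.7, 86.3 and 83.1 CPM in Ctrl, 87.3, 75.5 and 87.0 CPM in Ctrl_Swim, 68.3, 49.0 and 67.5 CPM in Model and 67.5, 72.6 and 63.7 CPM in Model_Swim. For both genes all 6 AOM/DSS libraries were below all 6 others, and Model 2 was the lowest of all.

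In Model vs Ctrl, Hspd1 was lower by a log2 change of -0.50 ± 0.11, or 0.707-fold (adjusted p = 0.00661), and Hspe1 by -0.45 ± 0.12, or 0.734-fold (adjusted p = 0.0143). Hspd1 kept its call in each of 23 other settings, with adjusted p of at most 0.0415. Without Model 2 alone, Hspe1 was at -0.28 (adjusted p = 0.0312), so that 1 library moved its value by over 1.5 times. Hspe1 lost its call without Ctrl 2 (adjusted p = 0.0578), in a fit of only the compared groups (adjusted p = 0.0547) and in limma on FPKM with no filter (adjusted p = 0.0518). Without Model 1 and Model 3 the differences were larger, -0.83 for Hspd1 and -0.80 for Hspe1, since the remaining library was Model 2. In Model_Swim vs Ctrl_Swim, Hspd1 was at -0.25 ± 0.11 (adjusted p = 0.203) and Hspe1 at -0.29 ± 0.12 (adjusted p = 0.165). Both passed there when Model 2, which enters only the estimate of the spread, was left out (adjusted p = 0.0373 and 0.0400). Over both activity groups Hspd1 was lower by -0.38 ± 0.08 (adjusted p = 0.00434) and Hspe1 by -0.37 ± 0.08 (adjusted p = 0.00628), and without Model 1 and Model 3 both were at -0.55 (adjusted p = 5.83e-05 and 0.000273).

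Hspd1, Hspe1 and Hspa8 were the 3 members called in Model vs Ctrl, where 32.7% of all genes were called, 16.2% were called lower and 7.43% were also past the 2-fold cutoff, which no member was. The share of members called was therefore near the background. Groups without overlap were found for 2 higher and 3 lower members, against 44.2% of all genes. The count of members called was 1 without Ctrl 2, 5 without Model 1 (with Dnajb1 and Hsp90aa1) and 5 without Model_Swim 1 (with Hspa1a and Hspa1b). Without Model 1 and Model 3, Hsp90aa1 was lower, at -0.49, and Hspb1 was higher, at 0.44. In all genes edgeR called 2562 higher and 2504 lower, and limma on log2(FPKM + 1) called 3003 higher and 1516 lower. On that scale the members called were Dnajb1, Hspd1 and Hspe1. The summed markers of colon epithelium were lowest in Model 1 and Model 2, but their 3 most abundant genes differed. Car1 was at 409, 277 and 4725 CPM in Model 1 to 3, against 5674 to 9119 CPM in the other groups. Muc2 was at 3826, 7917 and 12799 CPM, against 6656.5 to 10897 CPM. Krt8 was at 3320, 3251 and 3324.5 CPM, against 3738 to 5526 CPM. The part of these markers in the lower Hspd1 and Hspe1 levels was not tested. The exons of Hspd1 and Hspe1 overlap on opposite strands at their 5′ ends, and whether strand was used in counting is not given in the sources used here, so reads of that stretch cannot be told apart.

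**Figure D2:**
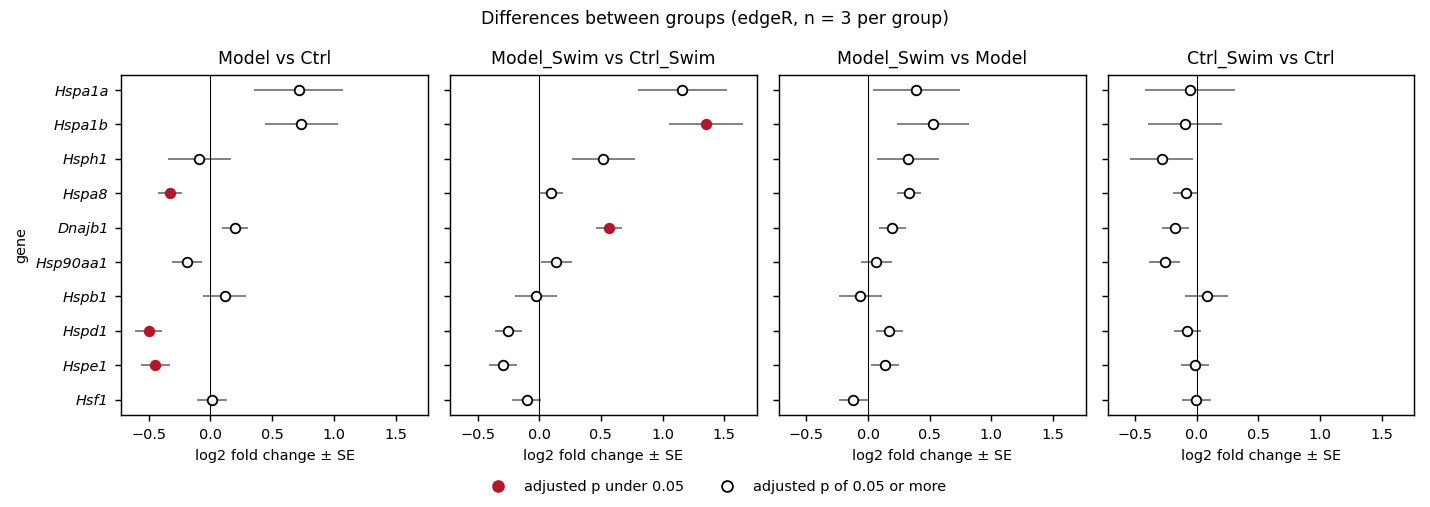
Log2 fold change of each member (x axis, ± SE) in the 4 group comparisons of edgeR, 3 libraries per group, with filled points for an adjusted p under 0.05. Hspa8, Hspd1 and Hspe1 are filled on the lower side in Model vs Ctrl, Hspa1b and Dnajb1 on the higher side in Model_Swim vs Ctrl_Swim, and none is filled in the comparisons of swimming.

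Hsf1, the transcription factor that drives the inducible members, passed no test. It was at 26.1, 32.9 and 33.5 CPM in Ctrl, 29.4, 35.5 and 27.3 CPM in Ctrl_Swim, 31.3, 29.5 and 32.3 CPM in Model and 31.5, 27.3 and 27.0 CPM in Model_Swim. All groups overlapped, and adjusted p lay between 0.662 and 0.989 in the 4 group comparisons. HSF1 is controlled mainly through its protein, which these data do not measure.

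Swimming was compared with no swimming separately in mice with and without AOM/DSS. In Model_Swim vs Model no member was called (lowest adjusted p 0.223, for Hspa8, the 1 member with an unadjusted p under 0.05), where edgeR called 0.0710% of all genes. Of the 10 members, 8 had a higher estimate in Model_Swim, with a median log2 fold change of 0.18 against -0.01 over all genes. Hspa8 was the only member whose Model_Swim and Model libraries did not overlap, as was so for 17.0% of all genes. DESeq2 called Hspa8, and without Model 1 and Model 3 edgeR called Hspd1 (0.50, adjusted p = 0.00798) and Hspe1 (0.49, adjusted p = 0.0375) in this comparison, where the only Model library left is the one with their lowest levels.

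In Ctrl_Swim vs Ctrl no member was called either, by edgeR or by DESeq2, and none had an unadjusted p under 0.05, where 0.969% of all genes were called. The estimates lay between -0.28 and 0.08 on the log2 scale, and 9 of 10 were below 0. Hsph1 and Hsp90aa1 were lower without overlap, against 27.5% of all genes without overlap. The interaction, which asks whether swimming acted differently in AOM/DSS mice, called no member and 0% of all genes, although 2947 genes had an unadjusted p under 0.05. The members with an unadjusted p under 0.05 were Hspa8, at 0.42 ± 0.14 on the log2 scale (adjusted p = 0.160), and Dnajb1, at 0.37 ± 0.15 (adjusted p = 0.223). Clock genes, the parts of the daily rhythm, were summed (13 of 13 present, led by Nr1d1, Clock and Nr1d2). The sum was 442 to 525 CPM in Model against 716 to 747 CPM in Ctrl, 812 to 998 CPM in Ctrl_Swim and 766 to 839 CPM in Model_Swim. The genes did not all follow the sum. Nr1d1 was at 44.1 to 76.2 CPM in Model and 130.4 to 156.1 CPM in Ctrl, and Nr1d2 was also lower in Model. Clock was higher, at 122.2 to 152.2 CPM in Model and 108.5 to 119.6 CPM in Ctrl. The part of the clock genes in the members' levels was not tested.

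Several members, but not all, were highest in the same library. Model_Swim 1 was the highest of all 12 libraries for Hspa1a, Hspa1b, Hsph1, Dnajb1 and Hsp90aa1. The mean z score of the 10 members was 1.01 there, 0.39 in Ctrl 2 as the next, and between -0.57 and 0.30 in the other libraries. Hspb1, Hspd1 and Hspe1 were below their own means in Model_Swim 1, with z scores of -1.01, -0.15 and -0.49. Model 2 stood apart in another way, with the lowest levels of Hsph1, Hspa8, Hsp90aa1, Hspd1 and Hspe1 and the highest of Hspb1.

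**Figure D3:**
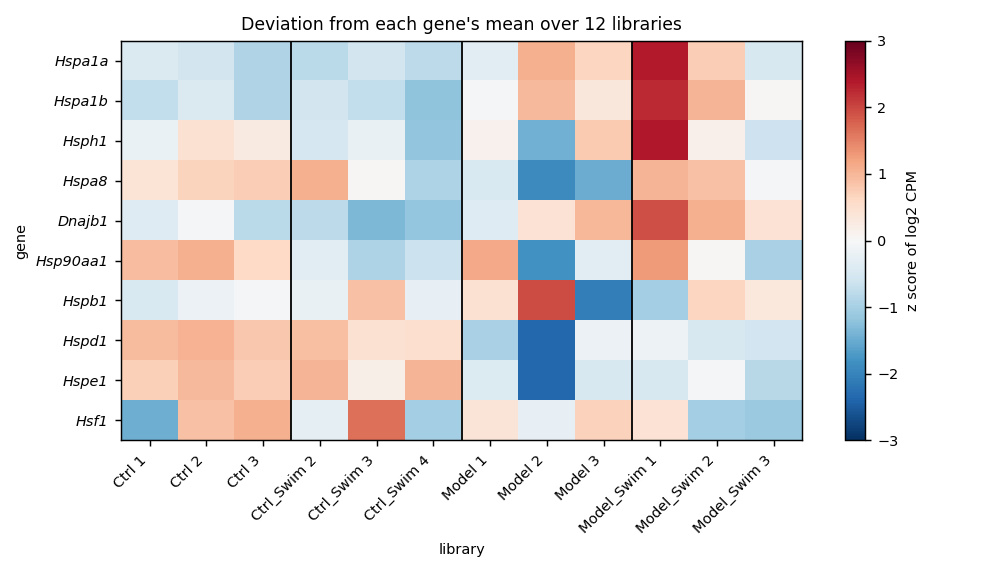
Deviation of each member (rows) from its own mean over the 12 libraries (columns, groups divided by lines), as a z score of log2 CPM on a colour scale centred at 0. The column Model_Swim 1 holds the highest value of the row for 5 members, and the columns of AOM/DSS libraries are low for Hspd1 and Hspe1.

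Which members varied together was asked over the 12 libraries, in log2 CPM. Of 45 pairs, 4 had an adjusted p of Pearson's r under 0.05 by a permutation test with 100000 resamples, 13 had an unadjusted p under 0.05, and 6 passed by Spearman's rho. Hspa1a and Hspa1b had r = 0.96 (permutation p = 1e-05, the smallest that could be given, and rho = 0.89, permutation p = 0.0003, adjusted p = 0.00045 and 0.00675), and these genes share reads. Hspa1b and Dnajb1 had r = 0.92 (permutation p = 5e-05, adjusted p = 0.0009, and rho = 0.94, permutation p = 1e-05, adjusted p = 0.00045), and Hspa1a and Dnajb1 had r = 0.88 (permutation p = 0.00018, adjusted p = 0.00203, and rho = 0.83, permutation p = 0.00158, adjusted p = 0.0178). Hspd1 and Hspe1 had r = 0.95 (permutation p = 6e-05, adjusted p = 0.0009, and rho = 0.83, permutation p = 0.00151, adjusted p = 0.0178).

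The 4 pairs kept a positive r within groups and without extreme libraries. After each group's mean was subtracted, r was 0.95 for Hspa1a and Hspa1b, 0.78 for Hspa1b and Dnajb1, 0.81 for Hspa1a and Dnajb1 and 0.82 for Hspd1 and Hspe1. Without the 2 libraries farthest from the median, r was between 0.82 and 0.90 for the 4 pairs, and without Model_Swim 1 between 0.80 and 0.95. The other 2 pairs that passed by rho did not pass by r. Hspa1a and Hspe1 ran opposite (rho = -0.78, permutation p = 0.0037, adjusted p = 0.0290, and r = -0.61, permutation p = 0.0386, adjusted p = 0.161), with r = -0.22 after the group means were subtracted. Hsph1 and Hsp90aa1 ran together (rho = 0.78, permutation p = 0.00387, adjusted p = 0.0290, and r = 0.71, permutation p = 0.00721, adjusted p = 0.0649), with r = 0.74 after the group means were subtracted and 0.51 without the 2 farthest libraries. Hsf1 had no pair that passed. The libraries share group differences and depth, and the count of pairs was 7 without Model 2 and 7 without Model_Swim 1.

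The genes most like the members were sought by Pearson's r with the mean z score of the 10 members over the 12 libraries, among 13592 candidate genes. They were Dnaja1 (r = 0.88), Wac (0.87), Pafah1b1 (0.85), Unc119b (0.84), Rbm12 (0.84) and Ube2f (0.82). The mean z score joins members that do not all move together, with r = 0.92 for Hspa1b and Dnajb1 but -0.65 for Hspa1b and Hspe1. Likeness to this mean is therefore not likeness to each member. Dnaja1 encodes the main J-domain partner of cytosolic HSP70 and ran from 110 to 176 CPM. All 6 were highest in Model_Swim 1, the library that was also highest in the mean z score of the members, and no test was made of this likeness.

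**Figure D4:**
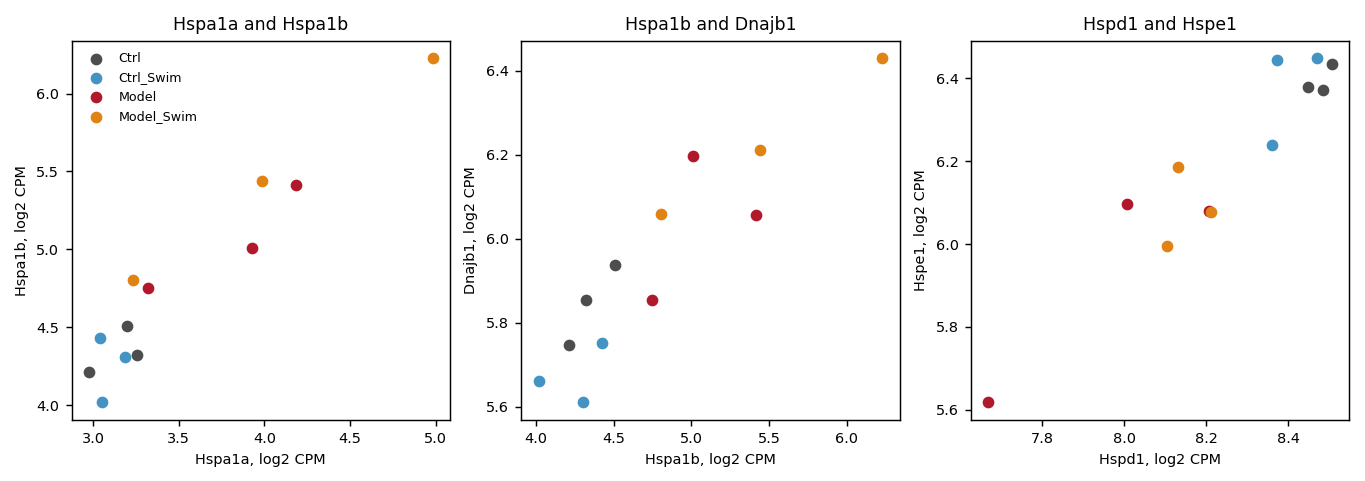
Log2 CPM of Hspa1b against Hspa1a (left), Dnajb1 against Hspa1b (middle) and Hspe1 against Hspd1 (right), with 1 point per library coloured by group. In the left and middle panels Model_Swim 1 is the point at the top right, and in the right panel Model 2 is the point at the bottom left.

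The rest of the chaperone network, 74 genes grouped by role, of which 72 could be tested, was looked at beside the members. In Model vs Ctrl 23 were called, 5 higher and 18 lower, with a median log2 fold change of -0.14 against 0.01 over all genes, and 34 lay lower and 8 higher without overlap. The total called was near the background of 32.7% of all genes. The share called lower was above the 16.2% of all genes, and the share called higher was below that of all genes, 2562 of 15484. The share without overlap was above the 44.2% of all genes. As the network was chosen with earlier results known, this is a description only. The largest falls were those of Fkbp5 and Fkbp4, co-chaperones of HSP90 in steroid receptor complexes, of Bag1, an exchange factor of HSP70, and of Dnaja3, a J-domain protein of mitochondria. Fkbp5 was at -1.09 ± 0.29 on the log2 scale (adjusted p = 0.0159) and was the only network gene past the 2-fold cutoff, but its call was lost without Ctrl 2 (adjusted p = 0.0573) or Model 2 (adjusted p = 0.0558) and in a fit of only the compared groups (adjusted p = 0.0651). It was at -1.64 without Model 3 and at -1.58 without Model 1 and Model 3 (adjusted p = 0.000358). Bag1 was at -0.80 ± 0.10 (adjusted p = 0.000663), with 253 to 281.5 CPM in Ctrl and 139 to 169.6 CPM in Model. Dnaja3 was at -0.51 ± 0.09 and Fkbp4 at -0.49 ± 0.10, and all 3 of Bag1, Dnaja3 and Fkbp4 kept their calls in each of 23 other settings, at -0.65, -0.73 and -0.67 without Model 1 and Model 3.

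The largest rises were those of Hspa12a, Serpinh1, Hspa12b and Hspa2. Serpinh1, the collagen chaperone HSP47 of matrix-forming cells, was at 77.4 to 83.3 CPM in Ctrl and 123 to 133 CPM in Model, a log2 fold change of 0.67 ± 0.10 (adjusted p = 0.00132). Hspa12a, a distant HSP70 relative, was at 12.5 to 14.4 CPM in Ctrl and 18.8 to 31.1 CPM in Model, a change of 0.84 ± 0.18 (adjusted p = 0.00585). Without Model 1 and Model 3 these were 0.64 and 1.17, both called. Hspa12b, the related gene of endothelial cells, at 0.57 ± 0.19 (adjusted p = 0.0405), and Hspa2, known from germ cells, at 0.53 ± 0.15 (adjusted p = 0.0211), each lost the call when single libraries were left out. These were Ctrl 2, Ctrl 3, Model 2, Model 3 and Model_Swim 2 for Hspa12b (adjusted p from 0.0518 to 0.128) and Ctrl 1, Ctrl 3 and Model 2 for Hspa2 (adjusted p from 0.0597 to 0.0743). In a fit of only the compared groups both lost it (adjusted p = 0.0767 for Hspa12b and 0.0838 for Hspa2). Hspa12b also lost it with the acinar covariate (adjusted p = 0.0662) and without Model 1 and Model 3 (0.68, adjusted p = 0.0797), where Hspa2 was at 0.76 (adjusted p = 0.00217).

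By role, 3 of 8 subunits of TRiC, the cytosolic chaperonin, were called lower and all 8 had negative estimates (median -0.24). Of 16 J-domain proteins 3 were called lower, of 22 co-chaperones 4 were called lower and 2 higher, and of 5 small heat shock proteins tested none was called, with 2 at an unadjusted p under 0.05. Beside 32.7% of all genes called, these counts tell nothing particular about a role. The count of TRiC subunits turned on the libraries, with 8 called without Model 1, 1 without Model 2, 7 without Model 1 and Model 3 and 5 with the acinar covariate. The count over the network was 35 without Model 1, 13 without Model 2, 15 without Ctrl 2, 15 without Ctrl 3 and 32 without Model 1 and Model 3. In the other 3 group comparisons and in the interaction edgeR called no network gene. Of the 72, the number at an unadjusted p under 0.05 was 6 in Model_Swim vs Model (13.6% of all genes, DESeq2 called 0), 14 in Ctrl_Swim vs Ctrl (17.6% of all genes, DESeq2 called 2), 22 in Model_Swim vs Ctrl_Swim (22.4% of all genes, DESeq2 called 4) and 15 in the interaction (19.0% of all genes). Over both activity groups 24 were called, 4 higher and 20 lower, beside 33.4% of all genes called and 16.5% called lower, and without Model 1 and Model 3 the count was 35.

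A grouping made after these values had been seen collects the 10 network genes whose proteins act in mitochondria, the compartment of HSP60 and HSP10. In Model vs Ctrl 7 of the 10 were called, all lower, with a median log2 fold change of -0.30, beside 32.7% of all genes called and 16.2% called lower, and since the grouping followed the values this count is a description only. Hspa9, the mitochondrial HSP70, was at 442 to 484 CPM in Ctrl and 324.5 to 369 CPM in Model (-0.41 ± 0.07, adjusted p = 0.00192), and its exchange factor Grpel1 was at -0.46 ± 0.08 (adjusted p = 0.00229). The proteases Clpx (-0.33 ± 0.07, adjusted p = 0.00528), Lonp1 (-0.29 ± 0.06, adjusted p = 0.00553) and Clpp (-0.25 ± 0.06, adjusted p = 0.0118), the HSP90 relative Trap1 (-0.31 ± 0.08, adjusted p = 0.0171) and Dnaja3 completed the 7. Clpp lost its call without Ctrl 2 (adjusted p = 0.0885), without Model 1 and Model 3 (-0.23, adjusted p = 0.0687), with the acinar covariate (adjusted p = 0.111), in a fit of only the compared groups (adjusted p = 0.0814) and in limma on FPKM (adjusted p from 0.138 to 0.147). Trap1 lost it without Ctrl 2 (adjusted p = 0.0800) or Model 2 (adjusted p = 0.0713), with the acinar covariate (adjusted p = 0.0527) and in limma on FPKM (adjusted p from 0.0928 to 0.109). Hspa9, Grpel1, Clpx, Lonp1 and Dnaja3 kept their calls in each of 23 other settings, and without Model 1 and Model 3 they lay between -0.73 (Dnaja3) and -0.38 (Clpx and Lonp1). Clpb was at -0.25 (adjusted p = 0.0525, and -0.41 and called without Model 1 and Model 3), Hscb at -0.05 (adjusted p = 0.764) and Grpel2, the second exchange factor, at 0.24 (adjusted p = 0.161). In Model_Swim vs Ctrl_Swim none of the 10 was called by edgeR and 9 had an unadjusted p under 0.05, as did 22.4% of all genes. There 8 estimates were negative and 2 were positive. Over both activity groups edgeR called 8 of the 10, beside 33.4% of all genes. Of these 7 were lower, and Grpel2 was higher (0.33, adjusted p = 0.0146). Without Model 1 and Model 3 Grpel2 was at 0.21 in that contrast.

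**Figure D5:**
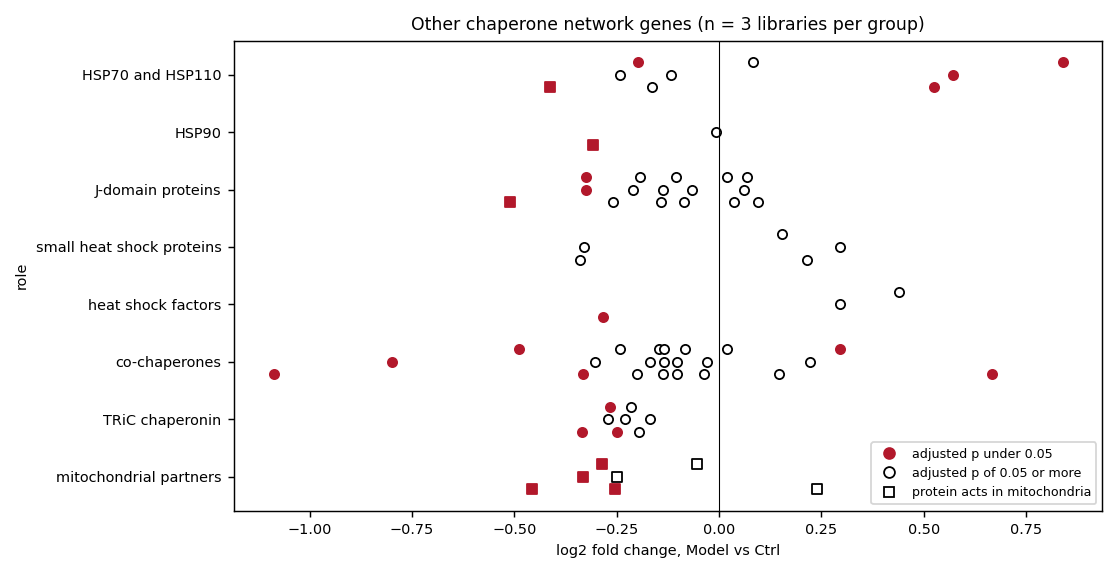
Log2 fold change in Model vs Ctrl (x axis) of the 72 tested genes of the other chaperone network, arranged by role (y axis, points offset for visibility), with filled symbols for an adjusted p under 0.05 and squares for proteins that act in mitochondria. All 7 filled squares lie below 0, between -0.51 and -0.25, and all 8 TRiC subunits lie below 0.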

How the data were processed

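RNA sequencing libraries of colorectal tissue from 12 mice were analysed, 1 library per mouse. Per the labels and the methods of the study, stranded mRNA libraries were made with a TruSeq kit and read on a HiSeq instrument of Illumina. The authors used Trimmomatic for trimming, HISAT2 for alignment against GRCm38.p6 and HTSeq-count for counting per gene. Versions of these tools, the annotation and the strand setting are not given in the sources used here. The authors deposited raw counts, whole numbers without normalization, and FPKM values computed with Cufflinks, both for 18514 symbols. The FPKM are the same counts rescaled, being 0 exactly where the count is 0 and for each gene in a ratio to the depth-scaled count that is the same in every library, so limma on FPKM tests another scale and model, not another quantification. The labels do not say that equal replicate numbers mark shared mice, litters or days. P-values measure the spread between these mice.

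The test on counts was the quasi-likelihood test of edgeR 4.0.16 under R 4.3.3, in 1 fit of all 4 groups with TMM scaling, over the 15484 genes that filterByExpr kept at a minimum count of 10. P-values were adjusted by Benjamini-Hochberg over all genes tested in each comparison, and a gene was called at an adjusted p under 0.05, with the study's 2-fold cutoff given beside it. CPM carry the TMM factors, and their log2 values a prior count of 2. A count of 3 is at most 0.174 CPM, a limit that covers counting error only. Alternatives were DESeq2 1.42.0 and limma 3.58.1 on log2(FPKM + 1) and log2(FPKM + 0.1) for genes at 0.5 FPKM or more. Others were other scaling, no filter, fits of only the compared groups and a replicate block. The mean log2 CPM of the acinar genes was also used as a covariate, and each library was left out in turn. The fit was tested on simulated data. Correlations were tested by permutation in Python 3.11.15.

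The members, the chaperone network, the marker lists (acinar cells, colon epithelium, smooth muscle, squamous epithelium, leukocytes, immediate early genes, clock and proliferation) and the tests were chosen with earlier results of these data known. The text names all 10 members, up to 4 network genes with the largest rise and 4 with the largest fall among those called at 1 CPM or more, the 3 most abundant genes of a marker list, and the 6 genes most like the members. The contrast over both activity groups, the grouping of mitochondrial genes and the genes named from it were chosen after seeing the data. Gene positions are from GENCODE vM21 and RefSeq of the same build.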

Additional observations from a re-analysis of the deposited data

How the results depend on the processing

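With 3 mice per group, 23 alternatives were tried where they applied. The count of members called in Model vs Ctrl was 3, and 1 in limma on log2(FPKM + 1) with no filter, 5 without Model 1 and Model 3 together, 0 with the 2-fold cutoff, and 1 to 5 when single libraries were left out. In Model_Swim vs Ctrl_Swim it was 2, and 1 in limma with no filter, 4 without Model 1 and Model 3 together, 1 with the 2-fold cutoff and 0 to 4 when single libraries were left out. In Model_Swim vs Model DESeq2 called 1 and edgeR without Model 1 and Model 3 called 2, the interaction without these libraries called 2, and the contrast over both activity groups with the 2-fold cutoff called 1. In Ctrl_Swim vs Ctrl no alternative called a member. The network count in Model vs Ctrl was 23, and 15 in a fit of only the compared groups, 1 with the 2-fold cutoff and 13 to 35 when single libraries were left out, and over both activity groups the cutoff left 0. In Model_Swim vs Model the network count was 2 without Model 1 and Model 3 and 0 to 1 over single libraries. In Ctrl_Swim vs Ctrl it was 2 with DESeq2, 2 without Model 1 and Model 3, 1 with the acinar covariate and 0 to 1 over single libraries. In Model_Swim vs Ctrl_Swim it was 4 with DESeq2, 3 in a fit of only the compared groups, 5, 4 and 2 in limma on log2(FPKM + 1), log2(FPKM + 0.1) and with no filter, 10 without Model 1 and Model 3, and 0 to 4 over single libraries. The count of correlated pairs was 4, and 4 to 7 over single libraries. Hscb, uncalled throughout, was at -0.05 in Model vs Ctrl and changed sign to 0.054 in limma on log2(FPKM + 1), 0.058 on log2(FPKM + 0.1), 0.054 with no filter, 0.075 without Model 1 and Model 3 and 0.087 with the acinar covariate, and it ran from -0.112 to 0.025 over single libraries. The causes of these changes were not tested. Over single members and named genes, 696 values stayed on their side of the threshold, 54 lost it, 18 gained it and 7 changed sign.

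Libraries with the same replicate number did not deviate together. Over 15 such pairs the correlation of deviations from the group means ran from -0.26 to 0.56, with 4 over 0.1, so the numbers were not taken as pairs. A replicate block called 0 members in Model_Swim vs Ctrl_Swim, where Hspa1b was at 1.10 (adjusted p = 0.177) and Dnajb1 at 0.55 (adjusted p = 0.121), and 3 in Model vs Ctrl, where Hspa12b lost its call (adjusted p = 0.0753), and over both activity groups Hspa1a lost its call at 0.84 (adjusted p = 0.0677). The block fits Ctrl_Swim 4, the only library numbered 4, exactly, so that library gives no information there.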
